A study of Mus musculus with 16 samples.

Results

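The genes described here are 38 genes of peroxisome biogenesis and peroxisomal oxidation, out of 19935 genes measured in mouse liver. They were chosen by symbol, with earlier results of these data known, and each was read from the probe set that the array's annotation pairs with it. Each of the 38 has exactly 1 such probe set, and none of these probe sets is shared with another named gene. By role they comprise 10 beta-oxidation enzymes, 2 alpha-oxidation enzymes, 7 genes of fatty acid transport and coenzyme A (CoA) handling, 13 biogenesis genes (peroxins, Pex), 3 genes of ether lipid synthesis, catalase and 2 other membrane proteins. Below, "oxidation enzymes" are the 12 enzymes of beta- and alpha-oxidation.

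The livers came from male PPARβ/δ knockout mice on a mixed Sv129/C57Bl/6 background and from their wild-type counterparts, each either fed or fasted for 24 h. All mice were anaesthetised with isofluorane, nitrous oxide and oxygen before they were killed, so every group shares that exposure. Total RNA from 1 liver per mouse was hybridised to 1 Affymetrix whole-transcript array. The wild-type groups held 4 fed and 5 fasted mice and the knockout groups 4 fed and 3 fasted, labelled as biological replicates. The design text speaks of 4 or 5 animals in a group, so the 3 knockout fasted arrays are fewer than it states, for a reason not given in the sources used here. No age, litter or description of the deleted part of Ppard is given in the sources used here. Mouse numbers are the replicate numbers of the labels, which state no pairing.

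Peroxisomes shorten very long-chain, branched and dicarboxylic fatty acids by beta-oxidation, whose steps are an acyl-CoA oxidase, a bifunctional enzyme that hydrates and dehydrogenates, and a thiolase. Fatty acids with a methyl branch that blocks these steps are first trimmed by alpha-oxidation. Peroxins insert the membrane proteins, import the matrix enzymes and divide the organelle. In rodent liver, several of the beta-oxidation enzymes and Pex11a are textbook targets of PPARα, the fatty acid-sensing nuclear receptor related to the PPARβ/δ that these knockout mice lack.

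Values are log2 probe set intensities, and a difference of 1 is a doubling. Because a probe's brightness depends on its sequence, levels are compared between mice for a gene and never between genes. Differences are log2 changes ± the standard error (SE) of 1 limma fit over all 16 arrays and all genes. A gene was called at a Benjamini-Hochberg adjusted p under 0.05, adjusted over the 19935 genes. In whole liver, fewer cells of a type and less RNA per cell cannot be told apart.

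All 38 genes lay above the level used to mark dim genes, a log2 mean of 2.79, with means of 3.07 to 11.46. Of the 38, 37 had a mean above that of the median gene. The shares and correlations given below for all genes include dim genes and are not matched to the level of the 38. All 10 hepatocyte markers, Alb, Apoa1 and Hnf4a among them, were measured and none was dim. Some arrays stood apart. An acute phase score over 10 genes, the mean log2 deviation from the 16-array mean, was 1.63 and 2.65 in knockout fed mice 1 and 4, against 0.74 and -0.43 in the other knockout fed mice and -0.64 to -0.32 in wild-type fed mice. The same score over 10 pancreas acinar genes reached 2.04 in wild-type fasted mouse 5, while the rest of its group ranged from -0.25 to 0.23. Kupffer cell and macrophage markers, 10 measured of 11 listed and none of them dim, scored 0.40 to 0.48 in knockout fed mice, -0.23 to -0.07 in wild-type fed, -0.60 to 0.08 in wild-type fasted and -0.05 to 0.18 in knockout fasted mice. Their summed intensity was 1150 to 1230 in knockout fed mice, 836 to 995 in knockout fasted, 705 to 831 in wild-type fed and 529 to 873 in wild-type fasted mice. For the 38 genes, calls that change without knockout fed mice 1 and 4, or without wild-type fasted mouse 5, are named below.

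Promoter windows of GRCm38.p6 from RefSeq, running from 250 bases before to 50 bases after a gene's start, were matched by gene identifier for 31 of the 38 genes. They were searched on both strands for the form of response element that PPAR/RXR pairs bind, AGGTCA repeated after 1 base of any kind, with at most 3 mismatches in its 12 fixed letters. No other motif was searched, and the array data hold no binding. A match was present in 7 of the 31 genes, where 27.3% of all genes in the table had one. With at most 2 mismatches it was present in 2 genes, Acox2 and Cat, against 4.4% of all genes. Of the 14 genes that rose on fasting in wild-type mice (below), 11 had a window and 1 of these, Slc27a2, a match. The 250 upstream bases are printed for Ehhadh and Pex11a, whose rises on fasting were the largest among the genes called in both genotypes, for Slc27a2, the riser with a match, and for Cat, which was not called. Capitals mark the match with the fewest mismatches, 227 bases before the start on the opposite strand in Slc27a2 (AGGTCAAAGGCGT when read on that strand, 3 mismatches) and 204 bases before it in Cat (2 mismatches). The printed bases lie at chr16:21787835-21788084 for Ehhadh and chr7:79743132-79743381 for Pex11a, both on the minus strand, at chr2:126552774-126553023 on the plus strand for Slc27a2 and at chr2:103485154-103485403 on the minus strand for Cat.
Ehhadh: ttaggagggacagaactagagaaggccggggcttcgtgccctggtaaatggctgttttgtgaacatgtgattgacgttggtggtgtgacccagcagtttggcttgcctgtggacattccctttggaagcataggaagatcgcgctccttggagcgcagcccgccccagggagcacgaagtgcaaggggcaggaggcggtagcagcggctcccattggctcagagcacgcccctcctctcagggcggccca
Pex11a: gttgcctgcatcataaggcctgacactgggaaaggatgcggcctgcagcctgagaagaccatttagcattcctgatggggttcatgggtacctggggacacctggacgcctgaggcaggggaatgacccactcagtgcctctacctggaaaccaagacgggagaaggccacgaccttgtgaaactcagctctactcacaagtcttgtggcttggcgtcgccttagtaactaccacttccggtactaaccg
Slc27a2: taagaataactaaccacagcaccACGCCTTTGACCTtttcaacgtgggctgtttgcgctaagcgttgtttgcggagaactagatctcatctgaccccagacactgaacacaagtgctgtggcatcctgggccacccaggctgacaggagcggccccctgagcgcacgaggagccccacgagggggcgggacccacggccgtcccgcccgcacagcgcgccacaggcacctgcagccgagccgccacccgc
Cat: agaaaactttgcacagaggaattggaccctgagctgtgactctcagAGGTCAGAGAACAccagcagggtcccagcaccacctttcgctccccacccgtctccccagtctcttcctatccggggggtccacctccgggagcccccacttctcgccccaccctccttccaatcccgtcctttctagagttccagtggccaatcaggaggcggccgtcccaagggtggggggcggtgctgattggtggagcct
These matches describe letters in short windows only.

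In wild-type mice, fasting raised 14 of the 38 genes and lowered 2, where 9.22% of all genes were called in either direction, 3.3% higher and 5.92% lower. The fed and fasted mice did not overlap for 17 of the 38, 14 of them higher and 3 lower on fasting, where 5.25% and 6.99% of all genes were separate in these directions. Among all 19935 genes, 658 were called higher and 1180 lower, and quantile normalization of the arrays turned this split to 857 and 969 while it gave 16 higher and 1 lower among the 38. Centring the arrays on a common median moved it the other way, to 496 higher and 1265 lower, with 13 higher and 2 lower among the 38. The median log2 change of the 38 was 0.25, against 0.02 over all genes, and 28 of the 38 changes were positive, against 56.6% of all genes. The genes that rose were 6 beta-oxidation enzymes (Ehhadh, Acaa1b, Ech1, Decr2, Acaa1a and Hsd17b4), the alpha-oxidation lyase Hacl1, the transport genes Slc27a2, Abcd3 and Abcd4, and the peroxins Pex11a, Pex19, Pex16 and Pex14. The genes that fell were the CoA diphosphatase Nudt7 and the branched-chain acyl-CoA oxidase Acox3. Without wild-type fasted mouse 5, whose liver sample carried the pancreas signal, 14 were called higher and 1 lower.

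**Figure D1:**
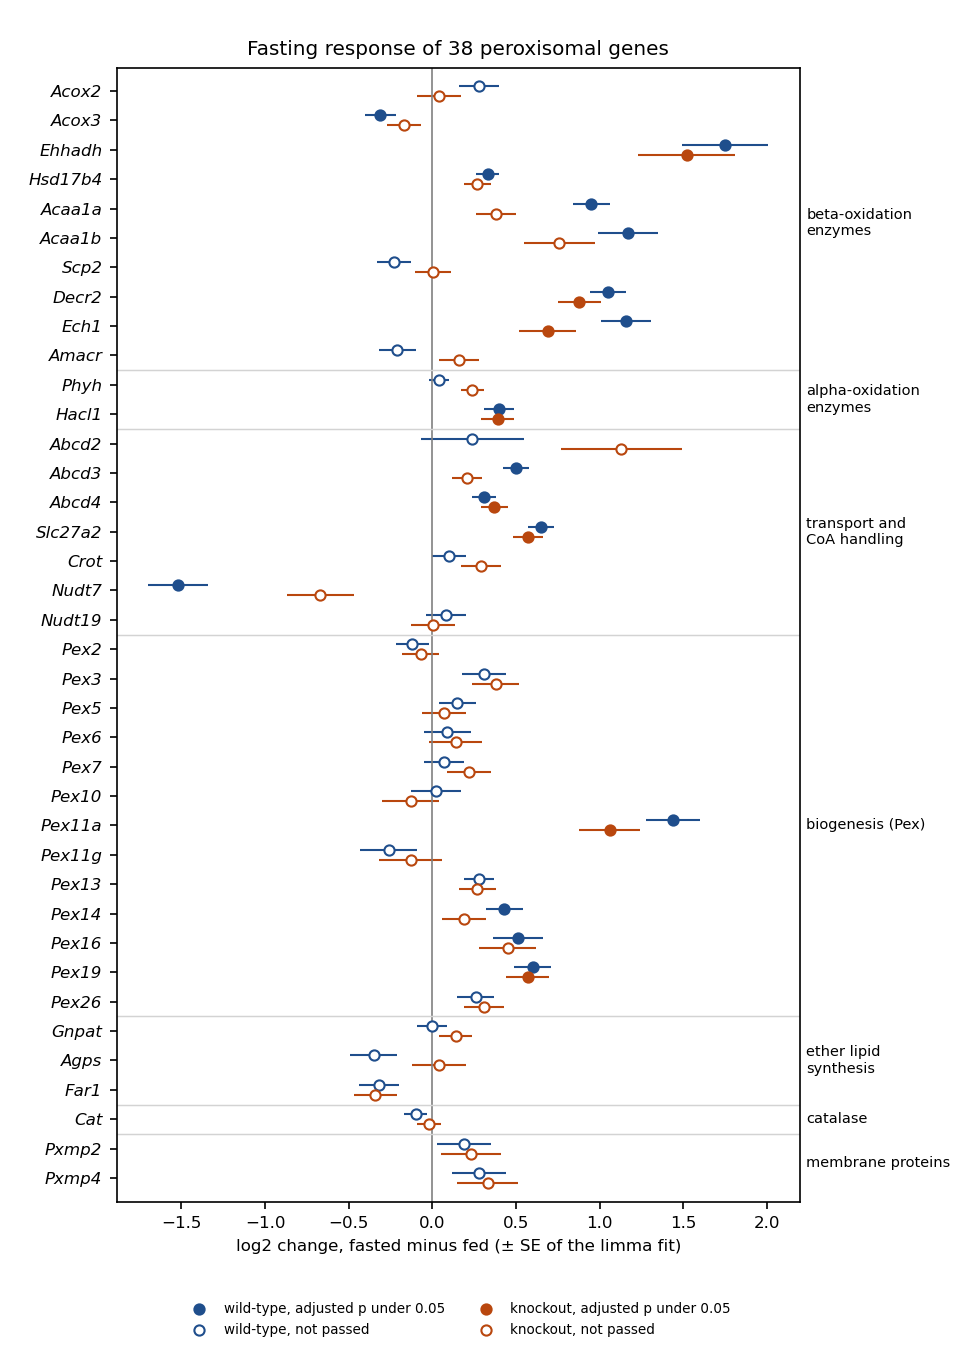
Log2 change on fasting (fasted minus fed, horizontal axis) of each of the 38 genes in wild-type mice (blue) and knockout mice (orange), grouped by role. Bars are the SE of the limma fit and filled points have an adjusted p under 0.05; 16 blue and 8 orange points are filled, and the changes run from -1.52 for Nudt7 to 1.75 for Ehhadh in wild-type mice.

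Ehhadh encodes the bifunctional enzyme of the classical straight-chain pathway and had the largest change. It read 8.63, 8.36, 8.56 and 8.41 in wild-type fed mice 1 to 4 and 11.17, 10.36, 9.43, 10.48 and 9.74 in wild-type fasted mice 1 to 5. In knockout mice it read 8.57, 8.98, 9.03 and 8.24 fed and 10.29, 10.29 and 10.11 fasted. Every fasted mouse lay above every fed mouse of its genotype, and the wild-type fasted mice were spread most widely, with an SD of 0.68. The change was 1.75 ± 0.26 in wild-type mice, a 3.36-fold rise (adjusted p = 0.000366), and 1.52 ± 0.29 in knockout mice, a 2.88-fold rise (adjusted p = 0.00729). Without knockout fed mice 1 and 4 the knockout change was 1.23 and was no longer called, with an adjusted p of 0.104.

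Acaa1a and Acaa1b encode the thiolases of the same straight-chain pathway. They are near-identical copies, so their probe sets may share signal and the separate values are uncertain. Acaa1a read 6.96, 6.85, 7.03 and 6.79 in fed wild-type mice and 8.24, 7.75, 7.72, 7.96 and 7.64 in fasted ones. The knockout values of Acaa1a were 7.22, 7.15, 7.26 and 7.14 fed and 7.63, 7.68 and 7.39 fasted. The knockout mice thus lay between the wild-type fed and the wild-type fasted groups, apart from an overlap of knockout fasted with wild-type fasted mice. Acaa1a rose by 0.95 ± 0.11 in wild-type mice (adjusted p = 3.04e-05), while its change in knockout mice was 0.38 ± 0.12 (adjusted p = 0.11). Acaa1b read 8.61, 8.61, 8.37 and 8.34 in fed wild-type mice and 10.17, 9.87, 9.09, 9.76 and 9.38 in fasted ones. It read 8.49, 8.54, 8.65 and 8.01 in knockout fed and 9.43, 9.19 and 8.93 in knockout fasted mice. Fed and fasted mice did not overlap in either genotype. The rise of Acaa1b was 1.17 ± 0.18 in wild-type mice, with an adjusted p of 0.000598, while the knockout change of 0.76 ± 0.21 had an adjusted p of 0.0536. That knockout change was called under several alternative settings, such as the filter on dim genes (adjusted p = 0.0373) and leaving out wild-type fasted mouse 3 (adjusted p = 0.026).

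Decr2 and Ech1 act on fatty acids that carry double bonds, Decr2 as a dienoyl-CoA reductase and Ech1 as a dienoyl-CoA isomerase found in peroxisomes and mitochondria. Decr2 read 8.72, 8.65, 8.91 and 8.75 in fed wild-type mice and 10.04, 9.72, 9.68, 9.98 and 9.61 in fasted ones. It read 8.67, 9.03, 9.08 and 8.59 in knockout fed mice and 9.75, 9.65 and 9.76 in knockout fasted mice. All fasted mice lay above all fed mice, whatever the genotype. The rise was 1.05 ± 0.11 in wild-type mice (adjusted p = 2.05e-05) and 0.88 ± 0.13 in knockout mice (adjusted p = 0.00104), and leaving out knockout fed mice 1 and 4 brought the knockout rise to 0.67 (adjusted p = 0.0191). Ech1 read 8.97, 8.31, 8.49 and 8.30 in fed wild-type mice and 10.10, 9.64, 9.38, 9.71 and 9.55 in fasted ones. In knockout mice it read 8.68, 8.33, 8.36 and 8.13 fed and 9.09, 9.16 and 8.93 fasted. The knockout fasted mice lay below all 5 wild-type fasted mice. Ech1 rose by 1.16 ± 0.15 in wild-type mice (adjusted p = 0.000142). Its knockout rise was 0.69 ± 0.17 (adjusted p = 0.0347), and without knockout fed mice 1 and 4 it was as large, at 0.72, but not called (adjusted p = 0.106). The knockout call of Ech1 was lost under 7 of 26 alternative settings. Among these were leaving out any 1 knockout fasted mouse, or knockout fed mouse 2, 3 or 4.

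Enzymes of the branched-chain arm of beta-oxidation had wild-type changes of 0.33 or less in size. Hsd17b4, the bifunctional enzyme that also serves branched fatty acids and bile acid precursors, read 9.98 to 10.04 in the 4 fed wild-type mice and 10.49, 10.23, 10.20, 10.46 and 10.32 in fasted mice 1 to 5. The groups did not overlap, and Hsd17b4 rose by 0.33 ± 0.07 (adjusted p = 0.00541), with a knockout change of 0.27 ± 0.08 (adjusted p = 0.0651). Acox3, an acyl-CoA oxidase for branched chains, read 6.01, 5.96, 6.17 and 5.96 in fed wild-type mice and 5.69, 5.85, 5.68, 5.76 and 5.57 in fasted ones. It went the other way, by -0.31 ± 0.09 (adjusted p = 0.0295). This call was lost under 8 of 26 alternative settings, among them the fit without wild-type fasted mouse 5. Acox2 (0.28, adjusted p = 0.162), the oxidase of bile acid precursors, Scp2 (-0.23, adjusted p = 0.16), a thiolase and sterol carrier, and the racemase Amacr (-0.21, adjusted p = 0.276) were not called, and the fed and fasted mice overlapped for each. Without wild-type fasted mouse 1, Scp2 was called lower (-0.32, adjusted p = 0.0179).

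Of the alpha-oxidation pair, Hacl1 rose. Hacl1, the lyase that removes a carbon, had a mean of 10.19 ± 0.16 (SD) with a highest value of 10.36 in the 4 fed wild-type mice and read 10.63, 10.48, 10.53, 10.83 and 10.49 in fasted ones, with no overlap. It rose by 0.40 ± 0.09 (adjusted p = 0.00951), and in knockout mice by 0.39 ± 0.10 (adjusted p = 0.0469), the latter lost under 14 of 26 alternative settings. Without knockout fed mice 1 and 4 the knockout change of Hacl1 was 0.29 and not called (adjusted p = 0.343). Phyh, which hydroxylates phytanoyl-CoA in the step before, changed by 0.04 ± 0.06 in wild-type mice, with a 95% interval of -0.08 to 0.17. Its knockout values were 11.45, 11.39, 11.36 and 11.23 fed and 11.62, 11.58 and 11.60 fasted, a change of 0.24 ± 0.07 with an adjusted p of 0.0647.

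Among the transport and CoA-handling genes, Slc27a2, the acyl-CoA synthetase and fatty acid transporter whose promoter window is printed above, had the largest change among those called higher. It read 11.26, 10.95, 11.05 and 11.13 in fed wild-type mice and 11.85, 11.68, 11.75, 11.79 and 11.69 in fasted ones. The knockout values were 10.97, 11.23, 11.33 and 11.05 fed and 11.69, 11.75 and 11.71 fasted. Fed and fasted mice were separate in both genotypes. The rise was 0.65 ± 0.08 (adjusted p = 8.69e-05) in wild-type mice and 0.57 ± 0.09 (adjusted p = 0.00259) in knockout mice, and 0.43 in knockout mice without mice 1 and 4 of the fed group (adjusted p = 0.0498). Abcd3, a peroxisomal importer of long-chain and branched acyl-CoAs, read 9.96, 9.77, 9.77 and 9.75 in fed wild-type mice and 10.44, 10.31, 10.13, 10.46 and 10.21 in fasted ones. Its knockout values were 9.70, 9.95, 9.93 and 9.91 fed and 10.07, 10.11 and 10.06 fasted. No fed mouse reached a fasted mouse of its genotype. Abcd3 rose by 0.50 ± 0.08 in wild-type mice, with an adjusted p of 0.000822, and its knockout change was 0.21 ± 0.09 (adjusted p = 0.29). Abcd4, named with this family but known as a lysosomal cobalamin transporter, rose by 0.31 ± 0.07 in wild-type mice, with an adjusted p of 0.0138. Its knockout rise was 0.37 ± 0.08 (adjusted p = 0.0219), against 0.44 without knockout fed mice 1 and 4, where it was not called (adjusted p = 0.0545). The knockout call of Abcd4 was lost under 5 of 26 alternative settings, among them leaving out knockout fasted mouse 1 or 3. Abcd2, described with the genotype differences, changed by 0.24 ± 0.31 in wild-type and by 1.13 ± 0.36 in knockout mice (adjusted p = 0.7 and 0.0997), neither being called.

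Nudt7, which cleaves CoA and acyl-CoA in peroxisomes and so bears on their CoA content, fell. It read 10.40, 10.16, 10.22 and 10.05 in fed wild-type mice and 9.45, 8.44, 8.70, 8.60 and 8.22 in fasted ones. In knockout mice it read 10.20, 10.21, 10.22 and 10.17 fed and 9.68, 9.23 and 9.67 fasted. Fasted mice lay below fed mice in both genotypes, and the knockout fasted mice overlapped with wild-type fasted mouse 1 alone. The change was -1.52 ± 0.18 in wild-type mice, a 2.87-fold decrease (adjusted p = 4.77e-05), and -0.67 ± 0.20 in knockout mice (adjusted p = 0.0839). The knockout decrease was called with a replicate block (adjusted p = 0.0204), in fits of 2 groups alone (0.0263) and without wild-type fasted mouse 1 (0.00656). Nudt19, a related CoA diphosphatase, changed by 0.08 ± 0.12 and Crot, the carnitine octanoyltransferase that exports shortened chains, by 0.10 ± 0.10 in wild-type mice, neither being called.

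**Figure D2:**
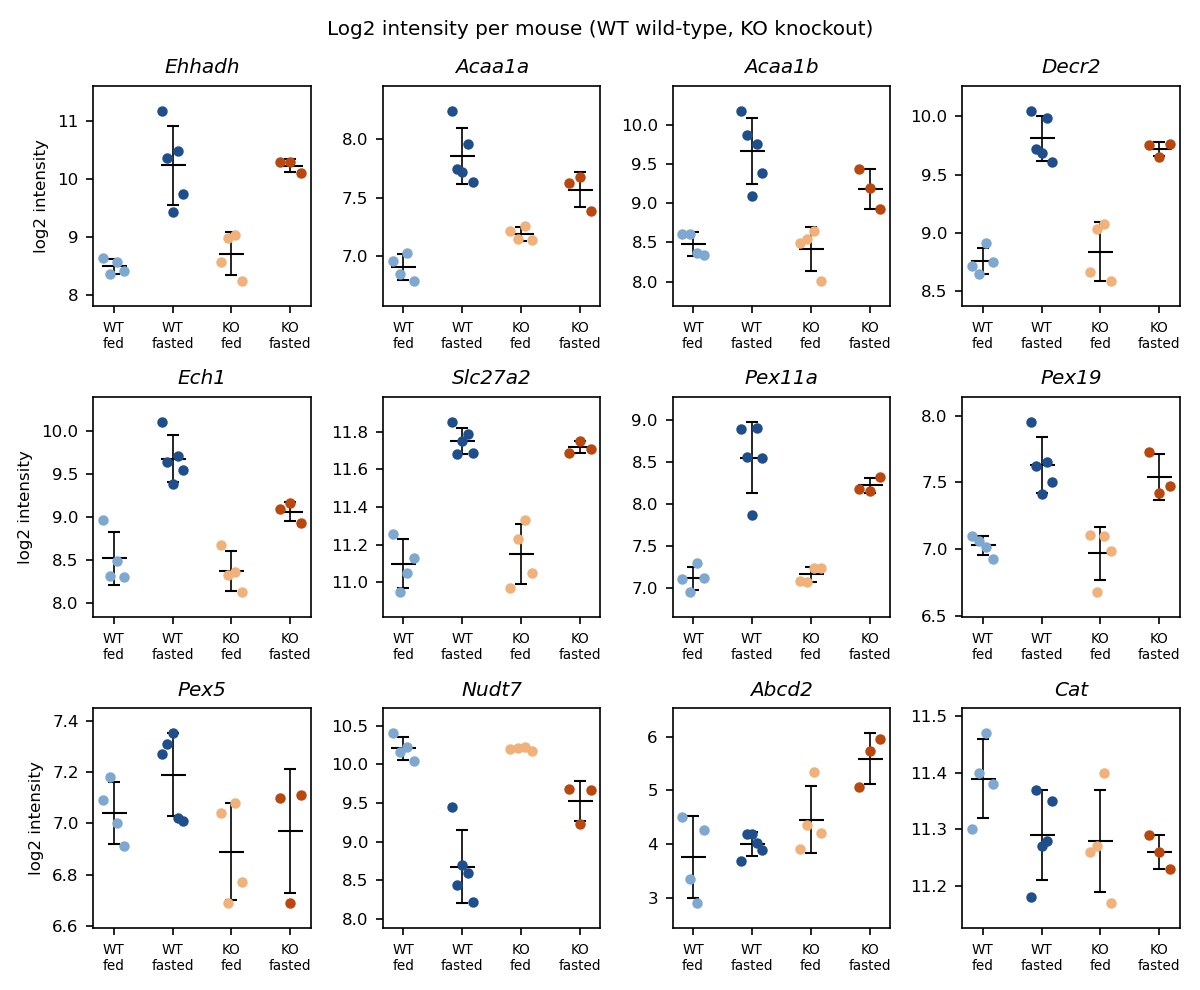
Log2 intensity (vertical axis, each panel on its own scale) of 12 of the genes in every mouse, by genotype and feeding state. Points are mice and the bars are the group mean ± SD; fasted mice lie above fed mice of the same genotype for Ehhadh, Decr2, Slc27a2, Pex11a and Pex19, below them for Nudt7, and the groups overlap for Pex5 and Cat.

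Among the 13 peroxins, 4 rose in wild-type mice and none fell, with a median change of 0.26, where 3.3% of all genes were called higher. Pex11a, which elongates peroxisomes ahead of division, accounted for the largest change. It read 7.10, 6.95, 7.30 and 7.11 in fed wild-type mice and 8.89, 8.56, 7.87, 8.90 and 8.55 in fasted ones. In knockout mice it read 7.08, 7.07, 7.24 and 7.23 fed and 8.18, 8.15 and 8.32 fasted. All fasted mice lay above all fed mice. Pex11a rose by 1.44 ± 0.16 (2.71-fold, adjusted p = 2.29e-05) in wild-type mice and by 1.06 ± 0.18 (2.09-fold, adjusted p = 0.00298) in knockout mice. Leaving out knockout fed mice 1 and 4 kept the knockout rise at 1.06, with an adjusted p of 0.0323. Pex11g, the other measured member of the Pex11 family, had a wild-type change of -0.26 ± 0.17 (adjusted p = 0.378).

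The machinery that places membrane proteins consists of Pex19, a soluble chaperone, and of Pex3 and Pex16, its membrane docks. Pex19 read 7.10, 7.06, 7.02 and 6.93 in fed wild-type mice and 7.95, 7.62, 7.41, 7.65 and 7.50 in fasted ones. It read 7.11, 6.68, 7.10 and 6.99 in knockout fed and 7.73, 7.42 and 7.47 in knockout fasted mice. All fasted mice again lay above all fed mice. In wild-type mice Pex19 rose by 0.60 ± 0.11 (adjusted p = 0.00235), and its knockout rise was 0.57 ± 0.13 (adjusted p = 0.0179). Without knockout fed mice 1 and 4 the Pex19 change was 0.65 and not called (adjusted p = 0.061). The knockout call of Pex19 was lost under 3 of 26 alternative settings, among them leaving out knockout fasted mouse 1. Pex16 read 7.56, 7.53, 7.49 and 7.32 in fed wild-type mice and 8.53, 7.86, 7.86, 7.98 and 7.69 in fasted ones. It rose by 0.51 ± 0.15 (adjusted p = 0.039), a call lost under 8 of 26 alternative settings, among them the fits without wild-type fasted mouse 1 or 4 and without any 1 of the 4 wild-type fed mice. Pex3 changed by 0.31 ± 0.13 (adjusted p = 0.149) and was not called, although it passed with quantile normalization (adjusted p = 0.034).

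Among the genes of matrix protein import, Pex14 alone was called. Pex14, a docking protein of the import pore, read 5.79, 6.17, 6.08 and 6.06 in fed wild-type mice and 6.84, 6.32, 6.44, 6.43 and 6.23 in fasted ones, with no overlap. It rose by 0.43 ± 0.11 (adjusted p = 0.023; 0.0854 without wild-type fed mouse 1). Its partner Pex13 changed by 0.28 ± 0.09 (adjusted p = 0.0828) and was called under quantile normalization (0.33, adjusted p = 0.0397) and without wild-type fed mouse 1 (0.34, adjusted p = 0.0486). The receptors for the targeting signals, Pex5 (0.15 ± 0.11) and Pex7 (0.07 ± 0.12), were not called, with 95% intervals of -0.09 to 0.39 and of -0.18 to 0.32. Pex2 (-0.12 ± 0.10) and Pex10 (0.02 ± 0.15), of the ubiquitin ligase that recycles the receptor, Pex6 (0.09 ± 0.14), the ATPase that extracts it, and Pex26 (0.26 ± 0.11), the membrane anchor of that ATPase, were likewise not called.

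The remaining genes gave no call in any comparison of the main fit. Catalase, which removes the hydrogen peroxide made by the oxidases, read 11.30, 11.40, 11.47 and 11.38 in fed wild-type mice and 11.18, 11.37, 11.27, 11.28 and 11.35 in fasted ones. Its change was -0.10 ± 0.07, with a 95% interval of -0.23 to 0.04, and -0.02 ± 0.07 in knockout mice. The ether lipid enzymes Gnpat, Agps and Far1 had wild-type changes of -0.0031, -0.35 and -0.32, with adjusted p of 0.988, 0.133 and 0.108 in that order. Far1 was called lower in wild-type mice when knockout fed mice 1 and 4 were left out (-0.32, adjusted p = 0.0478 by limma). The channel protein Pxmp2 and the membrane protein Pxmp4 had wild-type changes of 0.19 and 0.28.

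In knockout mice, fasting raised 8 of the 38 genes and lowered none, where 3.67% of all genes were called, 1.87% higher and 1.8% lower. The groups did not overlap for 17 of the 38, 16 higher and 1 lower, against 6.17% and 7.05% of all genes. Over all genes 373 were called higher and 359 lower, and centring the arrays on a common median turned this split to 401 and 240 and raised the count of the 38 to 11, adding Acaa1b, Hsd17b4 and Phyh. The 8 of the main fit were Ehhadh, Pex11a, Decr2, Ech1, Slc27a2, Pex19, Hacl1 and Abcd4. All 8 had also risen in wild-type mice and make up 57.1% of the 14 wild-type risers. The median change of the 38 was 0.24, against -0.02 over all genes. Without knockout fed mice 1 and 4, the pair with the high acute phase score, 3 genes (Decr2, Pex11a and Slc27a2) were called, where 1.09% of all genes were; that fit holds 2 fewer arrays. The acute phase genes themselves had a median fasting change of -1.13 in knockout mice and of -0.07 in wild-type mice, and their part in the fasting result of the 38 was not tested. Leaving out knockout fasted mouse 1 or mouse 3 gave 4 and 5 called genes.

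The fasting changes in the 2 genotypes, which share no arrays, had the same sign in 33 of the 38 genes, where 53% of all genes, dim ones included, did. Across the 38 genes Pearson's r between the changes was 0.87, and across all genes it was 0.49, given as a description since genes of 1 set of arrays are not independent. All 14 genes that rose in wild-type mice had positive changes in knockout mice and 13 of these were smaller, with a median ratio of 0.84; the 14 had been selected on the wild-type change. The test of the difference itself, the genotype by fasting interaction, called none of the 38 genes by limma, where 0.01% of all genes were called. At an unadjusted p under 0.05 it held 5 genes (Acaa1a, Nudt7, Abcd3, Amacr and Phyh), or 5 of 38 against 12.2% of all genes. The smallest adjusted p was 0.217, for Acaa1a, whose fasting change was lower by 0.58 ± 0.16 in knockout mice (interaction -0.58, 95% interval -0.92 to -0.24). For Nudt7 the interaction was 0.86 ± 0.27 (95% interval 0.29 to 1.42, adjusted p = 0.261). The widest 95% interval among the 38 interactions, that of Abcd2, reached 1.00 on either side of its estimate.

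The oxidation enzymes and the peroxins were set against each other. In wild-type mice, where 3.3% of all genes were called higher and 5.92% lower, 7 of 12 oxidation enzymes rose and 1 fell. Their median change was 0.36. Of the 13 peroxins 4 rose, with a median of 0.26. The difference of the medians was 0.10. It was 0.38 when the 10 beta-oxidation enzymes alone were taken, whose median was 0.64, 0.07 under quantile normalization, and from 0.05 without wild-type fasted mouse 4 to 0.23 without wild-type fasted mouse 3. In knockout mice, where 1.87% of all genes were called higher, 4 of 12 oxidation enzymes and 2 of 13 peroxins rose. Their medians were 0.33 and 0.22, and the difference of the medians was again 0.10, or 0.01 without knockout fed mice 1 and 4. The oxidation enzymes and the peroxins were not matched for intensity, and the part of intensity in these differences was not tested.

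Per mouse, the mean log2 deviation of the 12 oxidation enzymes from their 16-array means was -0.19, -0.30, -0.18 and -0.32 in fed wild-type mice and 0.57, 0.26, 0.09, 0.37 and 0.13 in fasted ones. In knockout mice it was -0.23, -0.20, -0.16 and -0.41 fed and 0.25, 0.16 and 0.14 fasted. Fed and fasted mice were separate in both genotypes. The same score over the 13 peroxins was -0.18 to -0.06 in wild-type fed and 0.0015 to 0.36 in wild-type fasted mice. It was -0.29 to -0.10 in knockout fed and -0.08 to 0.26 in knockout fasted mice. These groups were separate too, by a narrower gap, and without Pex11a they overlapped (wild-type fed up to 0.0041, wild-type fasted from -0.06; knockout fed up to -0.05, knockout fasted from -0.12). The oxidation score minus the peroxin score ran from -0.24 to -0.07 in wild-type fed and from -0.10 to 0.24 in wild-type fasted mice, and from -0.23 to 0.10 in knockout fed and -0.01 to 0.25 in knockout fasted mice. Fed and fasted mice overlapped on this difference in each genotype.

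**Figure D3:**
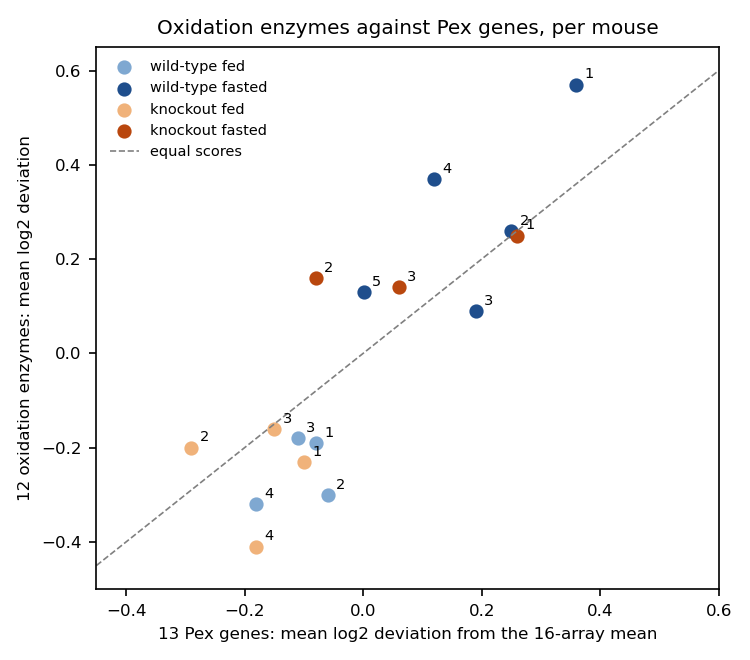
Mean log2 deviation of the 12 oxidation enzymes (vertical axis) against that of the 13 peroxins (horizontal axis) in each of the 16 mice, numbered within their group; the dashed line marks equal scores. Every fed mouse lies below 0 on both axes, every fasted mouse lies above 0 on the vertical axis, and wild-type fasted mouse 1 is highest on both, at 0.57 and 0.36.

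Genotype differences within a feeding state were few. In fed mice none of the 38 genes was called by limma, where 0.677% of all genes were, and 2 genes (Abcd2 and Acaa1a) had an unadjusted p under 0.05, against 13.2% of all genes. Estimates lay under 0.5 in size for 37 of the 38, and the widest 95% interval, that of Abcd2, reached 0.70 on either side. Acaa1a was 0.28 ± 0.11 higher in knockout fed mice (95% interval 0.05 to 0.52, adjusted p = 0.275), the fed groups being separate. The fed genotypes did not overlap for 2 of the 38, 1 higher and 1 lower in the knockout, where 3.53% and 3.18% of all genes were separate. Of the 13 peroxins, 10 had lower means in knockout fed and 11 in knockout fasted mice, none called, with medians of -0.13 and -0.10. The median of all genes was 0.01 in fed and -0.02 in fasted mice, with 52.3% and 43% of all genes positive. Of the 40 other peroxisomal genes listed below, 25 were lower in knockout fed and 27 in knockout fasted mice. Of the 19 mitochondrial fatty acid oxidation genes, 16 and 19 were. The higher Kupffer cell and macrophage score of the knockout fed mice, in which 3 of 10 markers were called higher, went with these values and its part in them was not tested.

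In fasted mice 1 of the 38 genes was called, Abcd2, where 0.537% of all genes were, 0.351% higher and 0.186% lower. In all, 9 genes had an unadjusted p under 0.05, against 10.4% of all genes. Over all genes the calls were 70 higher and 37 lower, or 98 and 31 after centring the arrays. Abcd2 encodes a peroxisomal transporter of very long-chain and polyunsaturated acyl-CoAs. It read 4.51, 3.35, 2.91 and 4.26 in fed wild-type mice and 3.68, 4.19, 4.19, 4.03 and 3.89 in fasted ones. In knockout mice it read 3.92, 4.36, 5.35 and 4.21 fed and 5.06, 5.74 and 5.96 fasted. The knockout fasted mice lay above all wild-type mice, whereas the fed groups overlapped. Abcd2 was 1.59 ± 0.34 higher in knockout than in wild-type fasted mice, a 3.01-fold difference (adjusted p = 0.0476), and 0.70 ± 0.33 higher in fed mice (adjusted p = 0.374). Its wild-type signal was low, with means of 3.76 fed and 4.00 fasted. Both means lay above the level used to mark dim genes, 2.79, but wild-type fed mouse 3, at 2.91, lay close to it. The sizes of the Abcd2 differences are therefore uncertain, and the part of low signal in them was not tested. The interaction for Abcd2 was 0.89 ± 0.47 (adjusted p = 0.454), so a difference between the feeding states was not shown. The mean knockout effect over both feeding states was 1.15 ± 0.24 (adjusted p = 0.0195), and Abcd2 was the only one of the 38 genes called in it, where 1.55% of all genes were, 0.963% higher and 0.587% lower.

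The Abcd2 call in fasted mice was lost under 13 of 26 alternative settings, with the adjusted p ranging from 0.00629 to 0.246, and in each of them the difference was at least 1.40. These include leaving out any 1 of the 3 knockout fasted mice or any 1 of the 5 wild-type fasted mice. The call on the mean effect was lost under 4 of 25, among them leaving out knockout fasted mouse 2 or 3. Adipocytes also express Abcd2. Of their 4 measured markers 3 were dim, and the marker score was -0.10 to 0.08 in knockout fasted and -0.10 to 0.11 in wild-type fasted mice. The part of adipocytes in the Abcd2 difference was not tested.

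Ech1 and Nudt7 came next in fasted mice. Ech1 was lower in all 3 knockout fasted mice than in any wild-type fasted mouse, with a difference of -0.61 ± 0.17 that was not called (adjusted p = 0.134). Nudt7 differed by 0.84 ± 0.19, with an adjusted p of 0.0621. It passed under 4 alternative settings, and was 1.04 with an adjusted p of 0.00175 when wild-type fasted mouse 1 was left out. That mouse had the highest Nudt7, Ehhadh and Acaa1a values of its group. The groups of 5 of the 38 genes did not overlap between knockout and wild-type fasted mice, 2 of them higher and 3 lower, where 3.81% and 4.44% of all genes were separate in these directions.

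**Figure D4:**
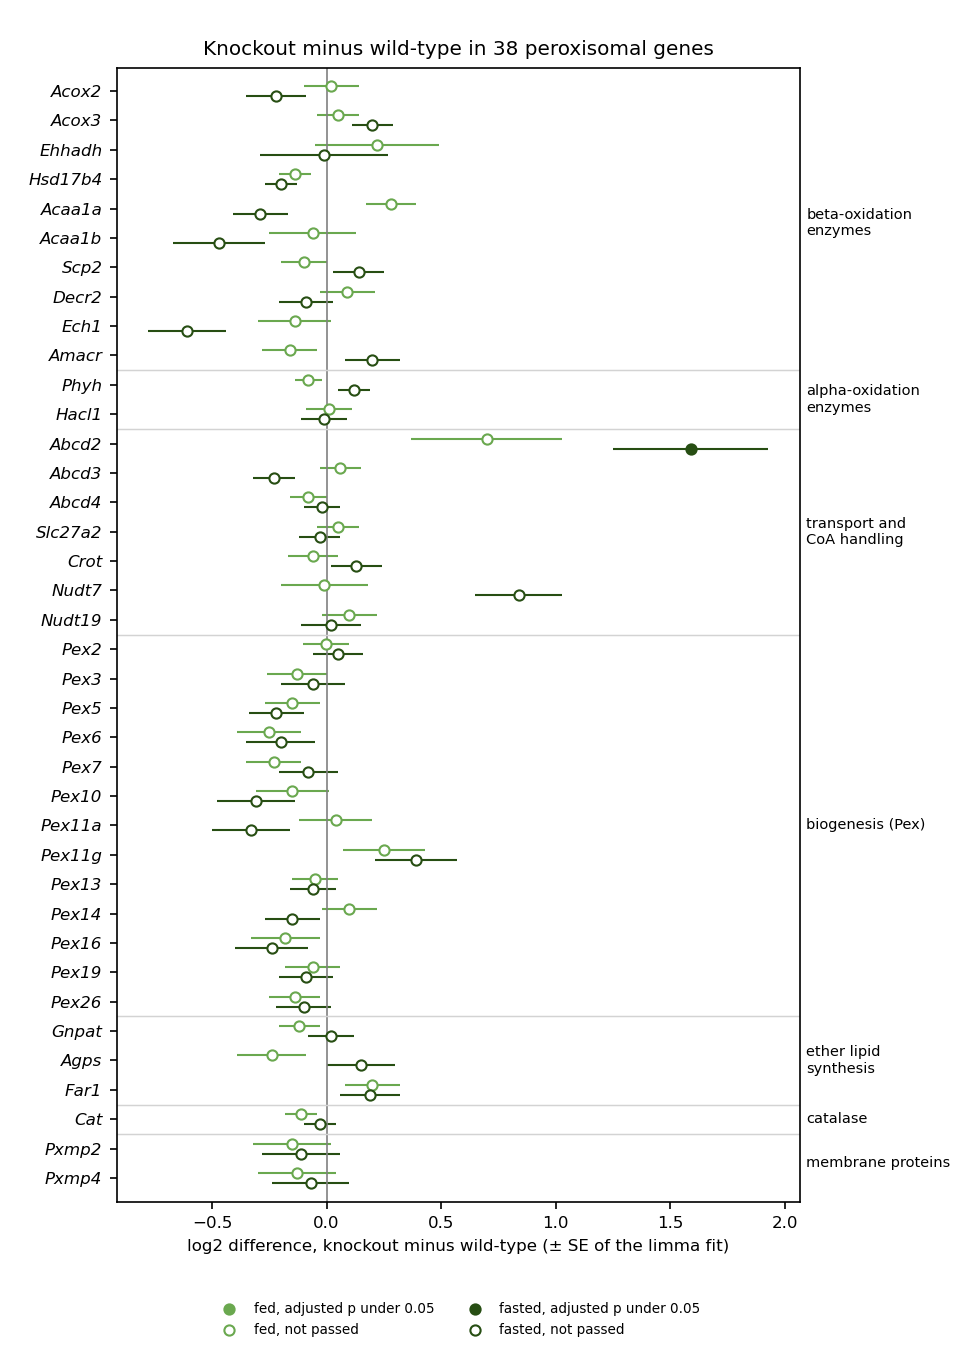
Log2 difference between knockout and wild-type mice (horizontal axis) of each of the 38 genes in fed (light green) and fasted (dark green) mice, grouped by role, with the SE of the limma fit; filled points have an adjusted p under 0.05. Abcd2 in fasted mice, at 1.59, is the only filled point, and most others lie within 0.5 of 0.

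Peroxisomal genes outside the 38 were mixed. Of 40 measured genes on a list of other peroxisomal genes, 9 rose and 8 fell on fasting in wild-type mice, with a median of 0.01, and 9 rose and 5 fell in knockout mice. The acyl-CoA thioesterase Acot4 rose by 2.09 ± 0.21 in wild-type and by 1.83 in knockout mice, and Crat, the carnitine acetyltransferase, by 1.87 ± 0.12 and 1.21. Acot3, another acyl-CoA thioesterase, was called higher in both genotypes as well, but its fed means of 2.78 in wild-type and 2.93 in knockout mice lay at the dim level, so no size is given. The falls were led by the mevalonate pathway kinase Pmvk (-1.30 ± 0.13 in wild-type and -1.49 in knockout mice), Hao1, the glycolate oxidase (-1.22 ± 0.13 in wild-type mice), and Mvk (-0.78 ± 0.11 and -1.11). On a list of 13 genes of peroxisome division and turnover, the autophagy receptor Sqstm1 rose by 0.34 ± 0.06 and the fission GTPase Dnm1l changed by -0.52 ± 0.07 in wild-type mice, and Dnm1l by -0.38 in knockout mice, while the other 11 genes gave no fasting call.

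Mitochondrial fatty acid oxidation, the pathway closest in function, had 13 of 19 measured genes higher on fasting in wild-type mice, with a median of 0.46, and 8 of 19 in knockout mice, with a median of 0.45. Ppara itself rose by 1.00 ± 0.17 (adjusted p = 0.00125) in wild-type and by 0.90 ± 0.20 (adjusted p = 0.0154) in knockout mice. Ppard, the targeted gene, read 4.78, 5.50, 5.31 and 4.83 in fed wild-type mice and 5.00, 4.50, 4.45 and 4.89 in fed knockout mice, which overlapped. Knockout minus wild-type was -0.39 ± 0.15 when fed (adjusted p = 0.266) and -0.08 ± 0.16 when fasted (adjusted p = 0.908). With the deleted part unknown, Ppard is no check of the labels.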

How the data were processed

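Liver RNA of 16 mice was measured on 1 array each. The deposited values are probe set intensities on a linear scale that the authors normalized by RMA, per the submitters' processing notes; the array median intensity was 8.08 to 8.61, and no software or genome build is given in the sources used here. From these, log2 values were taken and each gene was read from its highest-mean probe set: of 35519 probe sets, 21780 had 1 gene symbol, 1605 several and 12134 none, which left 19935 genes. limma 3.58.1 in R 4.3.3 fitted 4 group means over all 16 arrays (12 residual and 4.55 prior degrees of freedom), with contrasts for fasting in each genotype, knockout in each feeding state, their interaction and their mean, all two-sided. No gene was filtered in this fit, and no array was left out. On simulated data made for the wild-type fasting comparison with 19935 genes, the fit recovered 71% of changes of 0.5 and 97% of changes of 1.0 on the log2 scale, with 5.085% of calls false. In that simulation 100 genes were changed by each size and the noise was drawn independently for every value. The real comparison called 1838 genes and held arrays that stood apart, so these rates need not hold for it. The number of arrays limits the precision.

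The members and the comparison lists were chosen with earlier results of these data known. All 38 members could be named; of the other lists, up to 4 passing genes in each direction with the largest fasting change and any passing in a genotype contrast. Alternatives were quantile normalization, centring, a filter on genes under the 40th percentile of the mean, the median over a gene's probe sets, testing every probe set, array weights, a robust variance with an intensity trend, a replicate block, fits of 2 groups alone, leaving out each array, and leaving out knockout fed mice 1 and 4. Protein sequences were not used here.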

Additional observations from a re-analysis of the deposited data

Results flagged for a closer look

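In groups of 4 or 5 mice, the highest or lowest mouse was compared with the rest of its group by Dixon's gap at the 95% level. Of 114 such tests over the 38 genes 5 were past the limit, or 4.39%, and chance gives about 1 in 20. Abcd3 read 9.96 in wild-type fed mouse 1, above the 9.75 to 9.77 of its group, and 9.70 in knockout fed mouse 1, below 9.91 to 9.95 in the other 3. Pxmp2, the membrane channel protein, read 7.80 in wild-type fed mouse 1 against 8.53 to 8.67, and 8.17 in wild-type fasted mouse 2 against 8.65 to 8.72. Pex13 read 7.30 in wild-type fasted mouse 3 against 7.46 to 7.51. The fasting rise of Abcd3 in wild-type mice was called under all 26 alternative settings, with changes of 0.46 to 0.55; Pxmp2 was not called under any.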

How the results depend on the processing

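Of 26 calls on single genes among the 38, 16 were kept under every alternative run (13 for fasting in wild-type mice and 3, Decr2, Pex11a and Slc27a2, for fasting in knockout mice), and none changed sign. The count for fasting in wild-type mice was 16 and ran from 14 to 17; leaving out 1 array gave 14 to 17. For fasting in knockout mice it was 8, fell to 3 without knockout fed mice 1 and 4 and ran from 4 to 11 on leaving out 1 array. For knockout in fasted mice it was 1, with 2 under quantile normalization, under the filter on dim genes and with array weights (Nudt7 joining), 0 with an intensity trend and robust variance, and 0 to 1 on leaving out 1 array. For the mean knockout effect it was 1, with 0 under the intensity trend and 0 to 2 on leaving out 1 array. The counts for knockout in fed mice and for the interaction were 0 throughout. The median of the oxidation enzymes minus that of the peroxins was 0.10 in wild-type mice, 0.38 with the beta-oxidation enzymes alone and 0.05 to 0.23 on leaving out 1 array; in knockout mice it was 0.01 to 0.17. Over the whole array the counts moved by over 1.5 times on leaving out 1 array: 1199 to 2006 around 1838 for fasting in wild-type mice, 330 to 951 around 732 in knockout mice, 59 to 274 around 135 and 21 to 126 around 107 for knockout in fed and fasted mice, 175 to 359 around 309 for the mean effect and 0 to 8 around 2 for the interaction. Without knockout fed mice 1 and 4 they were 218 for fasting in knockout mice, 51 for knockout in fed mice and 171 for the mean effect; fits of 2 groups gave 401 and 76 for the former pair, and array weights 185 for knockout in fasted mice. The interaction count was 1 under the dim filter, the trend, the replicate block and without knockout fed mice 1 and 4. Apart from fits with fewer arrays, the cause was not tested.

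The correlations between deviations of same-numbered mice ran from -0.253 to 0.231, and between those of differently numbered mice from -0.341 to 0.29. The labels state no pairing, and these overlapping ranges do not decide whether same-numbered mice were paired. With the replicate block, 15 of the 38 genes were called higher and 1 lower for fasting in wild-type mice and 9 in all in knockout mice. Ech1 was then called lower in knockout fasted mice (-0.70, adjusted p = 0.0431 by limma) and Abcd2 was no longer called there (adjusted p = 0.149). In the mean knockout effect Ech1 was likewise called lower (-0.42, adjusted p = 0.0285) and Abcd2 was not called (adjusted p = 0.0594).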

Other observations

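Outside the 38 genes, genotype differences were called for a few genes of neighbouring pathways. Acadm, the medium-chain acyl-CoA dehydrogenase of mitochondria, read 9.93 to 10.03 in wild-type fed and 9.49 to 9.69 in knockout fed mice. It was also lower in knockout fasted (10.11 to 10.12) than in wild-type fasted mice (10.44 to 10.73). The differences were -0.39 ± 0.08 (adjusted p = 0.0258 by limma) and -0.45 ± 0.08 (adjusted p = 0.0138), and the groups did not overlap. Hadh, the mitochondrial hydroxyacyl-CoA dehydrogenase, differed by -0.40 ± 0.07 in fasted mice (adjusted p = 0.0199). Acadm and Hadh still rose on fasting in wild-type mice, by 0.59 and 0.28. All 19 mitochondrial genes had negative differences in fasted mice, 2 of them called, with a median of -0.16. Over all genes 43% of the differences in fasted mice were positive, with a median of -0.02.

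Among the other peroxisomal genes, Xdh, the purine-degrading xanthine dehydrogenase, was 0.62 ± 0.14 higher in knockout fed mice (adjusted p = 0.0459). It read 7.05 to 7.54 there and 6.53 to 6.63 in wild-type fed mice, with knockout fed mouse 4, which had the highest acute phase score, at 7.54. Hao1 was 0.68 ± 0.14 higher in knockout fasted mice (adjusted p = 0.037), at 8.65 to 8.94 against 7.92 to 8.51 in wild-type fasted mice. The part of the acute phase signal in the Xdh difference was not tested.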
